A study of Mus musculus with 8 samples.

Results

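Kruppel-like factors (KLFs) are zinc-finger transcription factors that bind CACCC and GC-rich elements, and 10 of them were followed in liver: Klf2, Klf3, Klf4, Klf6, Klf9, Klf10, Klf11, Klf12, Klf13 and Klf15. They were taken from the deposited gene tables by symbol, 10 of 16792 genes listed in any library, and all 10 were listed in every library and passed the filter on low counts. The set was selected on the contrast described here, in CPM and FPKM: Klf6 was chosen by its lower level in the knockout and the other members as its relatives, so their differences between the groups are given as a description, without p-values. Whether a member passed the threshold used for all genes is stated as a label and supports nothing.

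The libraries were mRNA profiles of whole liver from 8 mice on a diet that induces non-alcoholic steatohepatitis (NASH). The E4bp4-LKO group held 4 mice (143, 144, 145 and 179) with a knockout of E4bp4 specific to the liver, and the WT group held 4 wild-type mice (164, 165, 166 and 167). Both groups started the NASH diet at 2 months of age and stayed on it for 20 weeks. The title of the study places E4BP4 in hepatocytes and asks about fibrosis and activation of stellate cells, while the sources used here do not give the Cre driver, strain, sex or littermate status.

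Members of the family share their DNA-binding domain and differ in the cofactors their remaining sequence recruits. KLF3 and KLF12 recruit the corepressor CtBP, KLF9, KLF10, KLF11 and KLF13 recruit SIN3A, and KLF2, KLF4, KLF6 and KLF15 are best known as activators. In liver, KLF15 drives amino acid catabolism and gluconeogenesis in hepatocytes, KLF2 and KLF4 are induced by blood flow in endothelium, and KLF6 is induced by injury in stellate cells and also acts in hepatocytes.

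The promoters of the member with the wide difference, Klf6, of the member with the next lowest estimate, Klf4, and of the most abundant member, Klf15, are shown because all 3 hold the E-box CACGTG, a site of clock and other basic helix-loop-helix factors, and none holds either spelling searched of the D-box, the element that E4BP4 binds as a repressor. They are RefSeq promoters of build GRCm38.p6, from 250 bases before to 50 bases after the annotated start, written 5′ to 3′ on the strand of the gene with CACGTG in capitals.
Klf6, chr13:5861239-5861538, plus strand: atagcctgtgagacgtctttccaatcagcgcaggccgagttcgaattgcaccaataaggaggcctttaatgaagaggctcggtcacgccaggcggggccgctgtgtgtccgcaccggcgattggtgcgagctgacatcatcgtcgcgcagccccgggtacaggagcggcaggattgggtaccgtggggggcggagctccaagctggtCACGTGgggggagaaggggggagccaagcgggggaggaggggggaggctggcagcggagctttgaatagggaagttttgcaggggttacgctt
Klf4, chr4:55532426-55532725, minus strand: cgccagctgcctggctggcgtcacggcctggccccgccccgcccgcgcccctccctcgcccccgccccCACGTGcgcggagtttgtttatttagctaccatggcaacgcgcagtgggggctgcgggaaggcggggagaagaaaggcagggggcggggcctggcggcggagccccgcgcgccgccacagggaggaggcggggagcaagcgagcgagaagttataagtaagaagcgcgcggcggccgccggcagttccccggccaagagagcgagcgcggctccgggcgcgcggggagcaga
Klf15, chr6:90462326-90462625, plus strand: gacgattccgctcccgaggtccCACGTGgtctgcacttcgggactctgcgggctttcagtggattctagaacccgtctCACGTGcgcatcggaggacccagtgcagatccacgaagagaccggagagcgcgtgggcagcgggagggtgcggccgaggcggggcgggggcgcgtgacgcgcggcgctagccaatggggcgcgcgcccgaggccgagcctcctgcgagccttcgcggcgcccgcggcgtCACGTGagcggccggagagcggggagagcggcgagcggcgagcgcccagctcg
The E-box of Klf6 began at position -43 from the start, that of Klf4 at -182, and those of Klf15 at -228, -172 and -3.

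A promoter was given for 9 members (Klf10 is named only), and 10 motifs were searched on both strands among them and among 32851 RefSeq promoters of the same length. The D-box in the spellings TTATGTAA and TTACGTAA was found in 0 of 9 members each, against 0.938% and 0.119% of all promoters. CACGTG stood in 4 of 9 members (Klf4, Klf6, Klf11 and Klf15), against 7.15% of all promoters. The cyclic AMP element TGACGTCA stood in 0 of 9 (1.79% of all), its shorter core TGACG, which the full element contains, in 7 of 9 (20.8%), and the AP-1 site TGACTCA in 0 of 9 (5.20%). Of the sites that the family itself binds, CACCC stood in 6 of 9 members, near the share of all promoters (57.5%), and GGGCGG in 7 of 9 (35.7%). Shares were not taken among promoters of like GC content. CCAAT stood in 5 of 9 members (37.4% of all) and TATAAA in 1, Klf12 (13.6%). GC content of these promoters was 45.7% (Klf12) to 77.7% (Klf11), with 63.0% for Klf6, against a median of 52.7% over all promoters. A match of letters is a description of the sequence and shows no binding. Both D-box spellings are rare among all promoters, so their absence from these 9 members does not show a lack of binding.

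Levels are given as CPM, counts scaled to a common library size by the trimmed mean of M values (TMM), for comparisons of a gene between livers, and as FPKM, which also divides by transcript length, for comparisons between genes. Estimated counts summed to 23805540 to 32290265 per library, so that 3 counts, the floor used here, stood for 0.0929 to 0.126 CPM. The rarest member, Klf4, still rested on 66 to 144 estimated counts per library. The labelled tissue was checked by markers: 5 of hepatocytes (Alb, Apoa1, Ttr, Cps1, Hnf4a) summed to 65920 to 82132 CPM in E4bp4-LKO livers and 52572 to 67963 CPM in WT livers, with 0 called by edgeR, 1 higher at an unadjusted p under 0.05 and 1 higher by DESeq2. Counts at an unadjusted p under 0.05, here and below, stand without the share over all genes beside them. They are a description only and show no excess over all genes. No marker of the lists given here was at 0 in a library. Over all 13242 genes tested with edgeR's quasi-likelihood test, 1437 (10.9%) had an adjusted p under 0.05 and are called here, 579 higher (4.37%) and 858 lower (6.48%) in E4bp4-LKO livers. The split depended on scaling: with library totals in place of TMM, 291 were called higher and 1660 lower, and the median over all genes moved by -0.16 on the log2 scale.

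Nfil3, the gene that encodes E4BP4, had 3.33, 6.22, 6.14 and 3.35 CPM in E4bp4-LKO livers, against 11.4, 8.79, 12.1 and 16.5 CPM in WT livers. Every knockout liver was below every WT liver, and some Nfil3 mRNA remained in each. The log2 fold change, positive where E4bp4-LKO was higher, was -1.35 ± 0.25 (SE, n = 4 each; edgeR adjusted p = 0.0121).

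Klf6 was the member with the wide difference. Its mRNA stood at 23.4, 23.6, 19.8 and 22.7 CPM in E4bp4-LKO livers, against 62.1, 54.5, 45.9 and 45.8 CPM in WT livers. The groups were far apart, the knockout livers lay close together, and WT mice 164 and 165 were the highest. The means were 22.4 ± 1.74 CPM in E4bp4-LKO livers and 52.1 ± 7.80 CPM in WT livers (SD, n = 4 each), a log2 fold change of -1.22 ± 0.11 (SE), or 2.33-fold lower in the knockout. Over all genes tested, 218 (1.65%) had a log2 fold change at or below that of Klf6. Over 17 alternative analyses of the same libraries, its estimate lay between -1.39 (library totals) and -1.03 (without WT mice 164 and 165).

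Of the markers of other liver cells, some of stellate cells and macrophages were called lower in the knockout livers and others were not. Over all genes tested, edgeR called 6.48% lower and 4.37% higher. Stellate cell and fibroblast markers (Col1a1, Col1a2, Col3a1, Dcn, Pdgfrb, Des, Lrat, Rgs5, Acta2) summed to 455 to 641 CPM in E4bp4-LKO livers and 775 to 1500.1 CPM in WT livers, highest in WT mice 164 and 165, and 5 of 9 were called lower and 0 higher by edgeR, with 0 higher at an unadjusted p under 0.05 or by DESeq2. Macrophage markers (Adgre1, Cd68, Csf1r, Clec4f, C1qa, Cd5l, Trem2, Lyz2, Marco) summed to 566 to 769 CPM in E4bp4-LKO livers and 760 to 1045 CPM in WT livers, with 4 of 9 called lower and 0 higher, against 1 higher (Marco) at an unadjusted p under 0.05 and 0 higher by DESeq2. Without WT mice 164 and 165, where calls over all genes fell to 387, 0 of 9 stellate cell and 2 of 9 macrophage markers were called lower. The median log2 fold change of the stellate cell list was then -0.40 (-0.62 with all mice) and that of the macrophage list -0.20 (-0.56 with all mice). Cholangiocyte markers (Krt7, Krt19, Epcam, Sox9) summed to 8.08 to 12.6 CPM in E4bp4-LKO livers and 12.4 to 32.9 CPM in WT livers, with 0 of 4 called by edgeR (4 lower at an unadjusted p under 0.05) and 2 lower by DESeq2. Neutrophil markers (S100a8, S100a9, Retnlg, Csf3r) summed to 7.12 to 12.4 CPM in E4bp4-LKO livers and 8.40 to 18.3 CPM in WT livers. T and NK cell markers (Cd3d, Cd3e, Cd8a, Cd2, Nkg7) summed to 3.85 to 6.59 CPM in E4bp4-LKO livers and 3.86 to 5.86 CPM in WT livers. In these last 2 lists edgeR and DESeq2 called 0 genes, and 1, Csf3r, was lower at an unadjusted p under 0.05. The part of these cells in the Klf6 difference was not tested, and in whole liver fewer cells of a type cannot be told apart from less RNA per cell.

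**Figure D1:**
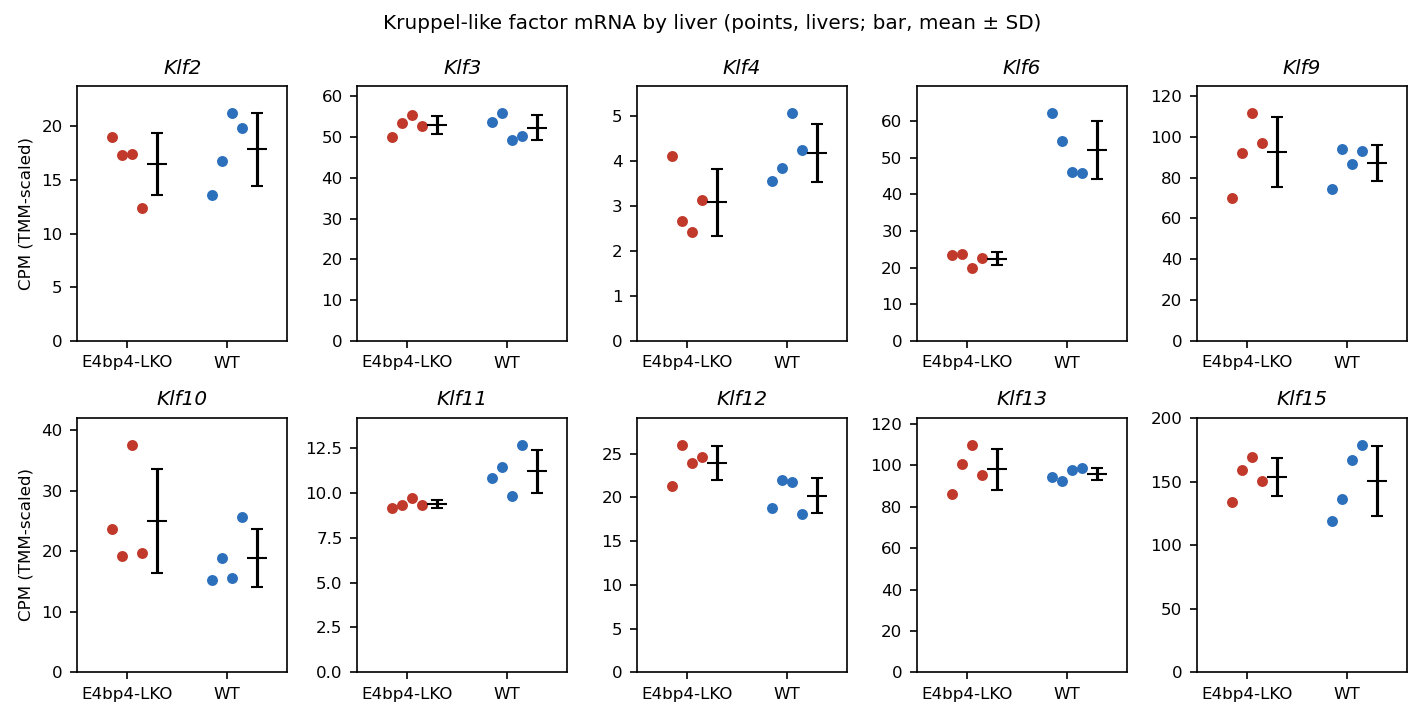
TMM-scaled CPM of the 10 Kruppel-like factors, each point a liver and each bar the mean ± SD of 4 livers, with E4bp4-LKO on the left of each panel and WT on the right. Klf6 lies at 19.8 to 23.6 CPM in E4bp4-LKO livers and 45.8 to 62.1 CPM in WT livers, while 8 of the 10 panels show overlapping groups.

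Of the other activators, Klf4 had 4.11, 2.67, 2.43 and 3.12 CPM in E4bp4-LKO livers, against 3.55, 3.84, 5.05 and 4.23 CPM in WT livers. Knockout mouse 143 was higher than WT mice 164 and 165, so the groups overlapped in CPM. They did not overlap in FPKM, at 0.74 to 1.28 in E4bp4-LKO livers and 1.34 to 1.64 in WT livers. FPKM is not scaled by TMM, and the median over all genes was -0.13 with limma on log2(FPKM + 0.1). The share of all genes without overlap in FPKM is not given, so nothing is read from this. The log2 fold change was -0.44 ± 0.19 (SE), not called, and it was -0.61 to -0.32 in the 16 alternatives that kept the gene.

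Klf2 had 19.0, 17.3, 17.4 and 12.4 CPM in E4bp4-LKO livers, against 13.6, 16.8, 21.2 and 19.9 CPM in WT livers. The groups overlapped widely, with knockout mouse 179 the lowest of all. Its log2 fold change was -0.11 ± 0.16 (SE), not called. Over 17 alternatives it lay between -0.30 (without WT mice 164 and 165) and 0.01 (without mouse 179), and 16 of them were below 0. Endothelial markers (Pecam1, Cdh5, Kdr, Tek, Stab1, Stab2, Lyve1, Clec4g) summed to 262 to 381 CPM in E4bp4-LKO livers and 267 to 300.03 CPM in WT livers. Knockout mouse 143, at the top for these markers, was also the highest knockout liver for Klf2 and for Klf4. This was not particular to endothelial markers. Mouse 143 was also the highest knockout liver for macrophage (769 CPM) and neutrophil markers (12.4 CPM), though not for stellate cell, cholangiocyte or T and NK cell markers. The part of the markers in these values was not tested. By edgeR 0 of the 8 endothelial markers were called, with 1 higher at an unadjusted p under 0.05, and DESeq2 called 1 higher.

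Klf15 was the most abundant member by FPKM. It had 134, 159, 169.8 and 151 CPM in E4bp4-LKO livers, against 119, 136, 167 and 179 CPM in WT livers. The knockout livers lay inside the range of the WT livers. The log2 fold change was 0.03 ± 0.13 (SE), not called, and its sign turned among the alternatives, from -0.17 without WT mice 164 and 165 to 0.12 without WT mouse 167.

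Among the partners of SIN3A, Klf9, a target of glucocorticoids and thyroid hormone, had 69.9, 91.9, 111 and 97.1 CPM in E4bp4-LKO livers, against 74.6, 93.9, 86.4 and 93.2 CPM in WT livers. The lowest and the highest liver were both knockouts. Its log2 fold change was 0.09 ± 0.13 (SE), not called, with either sign among the alternatives (-0.08 to 0.20).

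Klf10, first described as a gene induced by TGF-beta, had 23.7, 19.3, 37.6 and 19.7 CPM in E4bp4-LKO livers, against 15.2, 18.9, 15.7 and 25.7 CPM in WT livers. Knockout mouse 145 was the highest, and WT mouse 167 exceeded 3 of the 4 knockout livers. The log2 fold change of 0.41 ± 0.24 (SE), not called, was the highest among the members. Over 17 alternatives it lay between 0.15 (without mouse 145) and 0.60 (without WT mouse 167).

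Klf11, a close relative of Klf10 that is also induced by TGF-beta, had 9.17, 9.29, 9.68 and 9.33 CPM in E4bp4-LKO livers, against 10.8, 11.4, 9.81 and 12.7 CPM in WT livers. The groups did not overlap, but the highest knockout liver and the lowest WT liver almost met. Its log2 fold change was -0.26 ± 0.10 (SE), not called, and it was called in 3 of 17 alternatives: library totals (-0.41) and limma on log2(FPKM + 0.1) (-0.39) or log2(FPKM + 1) (-0.29), which all place the median of all genes below 0.

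Klf13 had 86.0, 100.7, 109.8 and 95.1 CPM in E4bp4-LKO livers, against 94.2, 92.6, 97.4 and 98.7 CPM in WT livers. The WT livers lay inside the range of the knockout livers. Its log2 fold change was 0.03 ± 0.08 (SE), not called, with either sign among the alternatives (-0.13 to 0.09). Estimated counts of Klf11 and of Klf13 were more than 0.05 away from a whole number in 5 of 8 libraries each, so their values are estimates, and whether reads were shared with other genes was not tested.

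Of the partners of CtBP, Klf3 had 50.1, 53.5, 55.3 and 52.7 CPM in E4bp4-LKO livers, against 53.7, 55.8, 49.4 and 50.2 CPM in WT livers. All 8 livers lay within a narrow band. The log2 fold change was 0.02 ± 0.07 (SE), not called, with either sign among the alternatives (-0.14 to 0.09).

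Klf12 had 21.4, 26.0, 24.0 and 24.6 CPM in E4bp4-LKO livers, against 18.8, 22.0, 21.7 and 18.2 CPM in WT livers. Only knockout mouse 143 fell within the WT range. The log2 fold change was 0.25 ± 0.09 (SE), not called, and 0.07 to 0.30 over 17 alternatives.

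As a group, 1 of the 10 members was called, Klf6, against 10.9% of all genes, and 2 of the 10, Klf6 and Klf11, did not overlap between the groups in CPM, both lower in E4bp4-LKO, against 18.5% of all genes in either direction, 9.70% lower and 8.81% higher. The median log2 fold change was 0.02 over the 10 members and 0.01 over all genes tested. The other 9 members lay between -0.44 and 0.41, with SEs of 0.07 to 0.24.

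**Figure D2:**
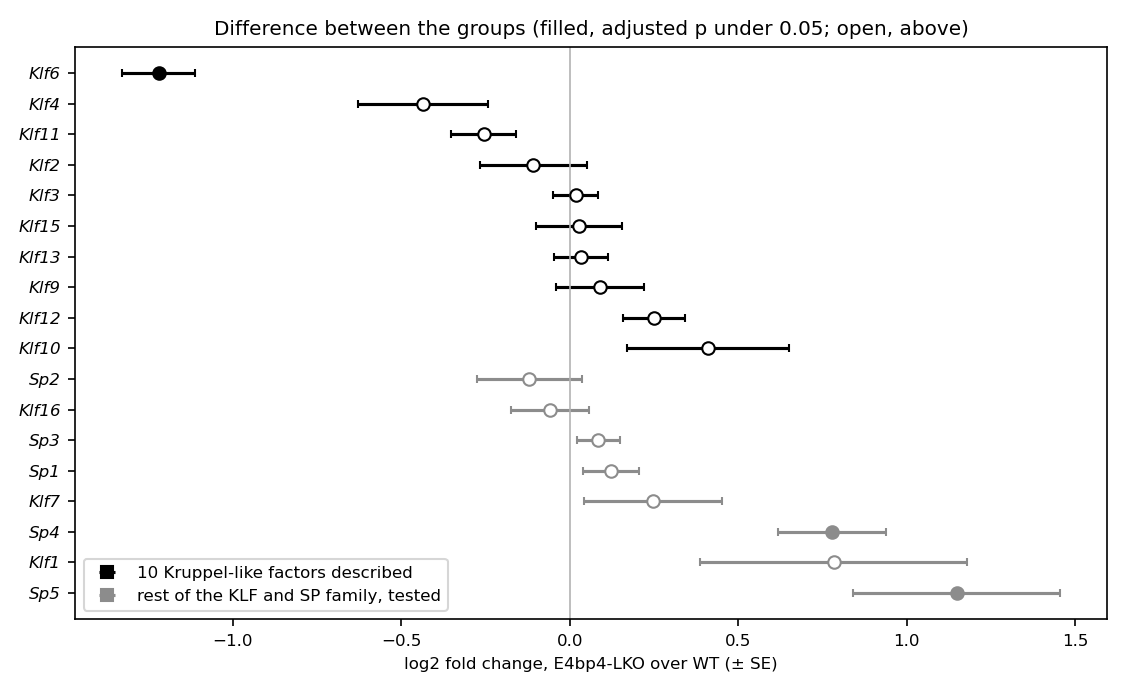
Log2 fold change of E4bp4-LKO over WT with its SE, for the 10 Kruppel-like factors in black and for the 8 tested genes of the rest of the KLF and SP family in grey. Filled points are called by edgeR: Klf6 at -1.22, Sp4 at 0.78 and Sp5 at 1.15.

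The members also differed in how much they varied between mice of a group. The SD of log2 CPM was widest for Klf10, at 0.45 in E4bp4-LKO livers and 0.35 in WT livers. It was narrowest over both groups for Klf3, at 0.06 in E4bp4-LKO livers and 0.08 in WT livers. Klf11 was at 0.03 in E4bp4-LKO livers and 0.15 in WT livers, and Klf13 at 0.15 in E4bp4-LKO livers and 0.04 in WT livers. Klf6 was at 0.12 in E4bp4-LKO livers and 0.21 in WT livers, beside a median over all genes tested of 0.16 in each group.

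Ordered by mean FPKM over the 8 livers, the members spanned a 55.5-fold range. Klf15 came first at 65.7 FPKM, then Klf9 (27.2), Klf3 (22.7), Klf13 (14.9), Klf2 (9.47), Klf6 (8.996), Klf10 (7.08), Klf12 (3.78), Klf11 (2.57) and Klf4 (1.18). The choice of members did not use this order, though Klf6 was chosen by its difference between the groups, which enters the pairs that hold it. Each of the 9 neighbouring pairs was compared within livers, both groups pooled. The test was an exact two-sided sign-flip permutation test on log2 FPKM, whose smallest possible p was 0.0078. After Benjamini-Hochberg adjustment over the 9 pairs, 7 differed (exact permutation, adjusted p = 0.0141 to 0.0402). Klf9 exceeded Klf3 in 6 of 8 livers (exact permutation, adjusted p = 0.0402), and 6 to 7 pairs differed when a mouse was left out.

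The pairs that were not separated both held Klf6. Because the test pools the groups and Klf6 was selected to differ between them, the results of these pairs depend on that selection. They are given as a description. Klf2 exceeded Klf6 in 6 of 8 livers (exact permutation, adjusted p = 0.422), and Klf6 exceeded Klf10 in 4 of 8 livers (exact permutation, adjusted p = 0.555). Klf6 ranked 7 of 10 in each of the 4 E4bp4-LKO livers, below Klf10, while in WT livers it ranked 4 to 6. Its level was 4.97 ± 0.4004 FPKM in E4bp4-LKO livers and 13.0 ± 2.97 FPKM in WT livers (SD, n = 4 each). It made up 2.55 to 3.77% of the summed FPKM of the 10 members in E4bp4-LKO livers and 5.95 to 9.95% in WT livers, and Klf15 made up 40.1 to 42.0% in E4bp4-LKO livers and 35.4 to 43.1% in WT livers. The sum itself was 154 ± 13.6 FPKM in E4bp4-LKO livers and 173.5 ± 3.96 FPKM in WT livers. FPKM is not scaled by TMM. With limma on log2(FPKM + 1) or log2(FPKM + 0.1), the median of all genes moved by -0.12 or -0.14. Klf15 averaged 63.1 FPKM in E4bp4-LKO livers and 68.4 FPKM in WT livers, against 153 and 150 CPM. The sums are therefore not read as a difference of the family.

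**Figure D3:**
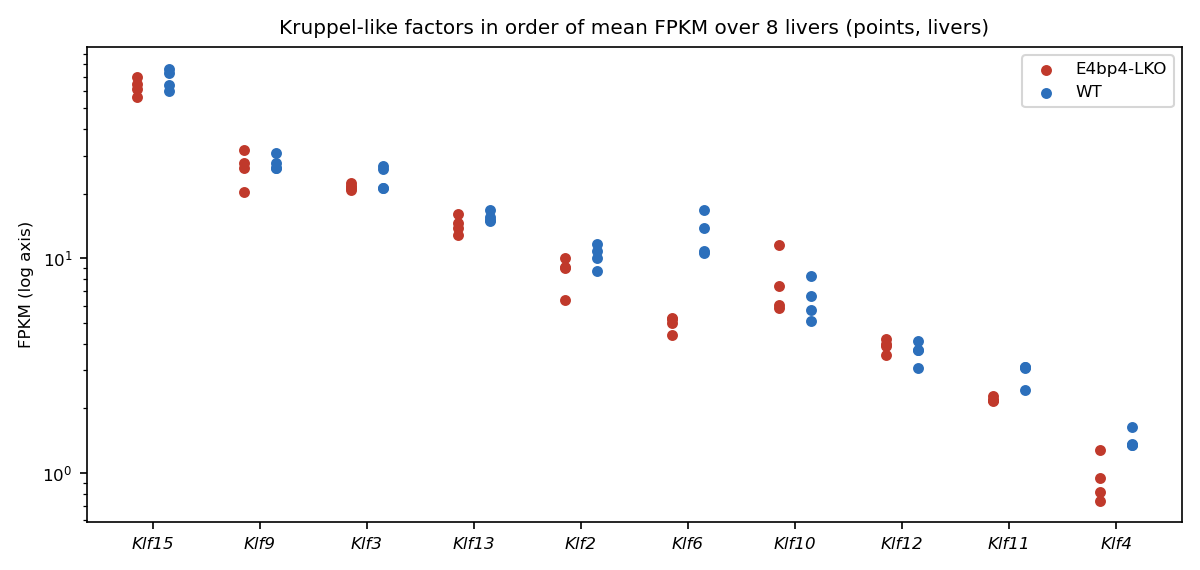
FPKM of the 10 Kruppel-like factors on a log axis, ordered by their mean over the 8 livers, with E4bp4-LKO livers on the left and WT livers on the right of each gene. Klf6 lies below Klf10 in all 4 E4bp4-LKO livers (4.97 FPKM on average) and above it in all 4 WT livers (13.0 FPKM on average).

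The genes most like Klf6 across the 8 livers were found by the root mean square (RMS) difference between log2 CPM profiles centred on their means, among 10603 genes, as a description. They were Mapt (RMS difference 0.14), which encodes the microtubule protein tau, Anxa2 (0.14), a calcium-dependent membrane-binding annexin, Tagln2 (0.15), an actin-binding transgelin, AA986860 (0.16) and Capg (0.16), which caps actin filaments. The median RMS difference to Klf6 over all genes compared was 0.65, and among the members it was 0.49 for Klf4, 0.52 for Klf11 and up to 0.92 for Klf10.

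Capg had 7.62, 8.53, 7.28 and 7.85 CPM in E4bp4-LKO livers, against 19.9, 18.3, 14.1 and 11.6 CPM in WT livers. Anxa2 had 80.5, 64.6, 60.7 and 68.4 CPM in E4bp4-LKO livers, against 168, 156, 115 and 116 CPM in WT livers. For all 5 genes the groups were apart, and all but Mapt had WT mice 164 and 165 as their highest livers, as Klf6 did. Such likeness follows from the way the genes were chosen and is no separate result.

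**Figure D4:**
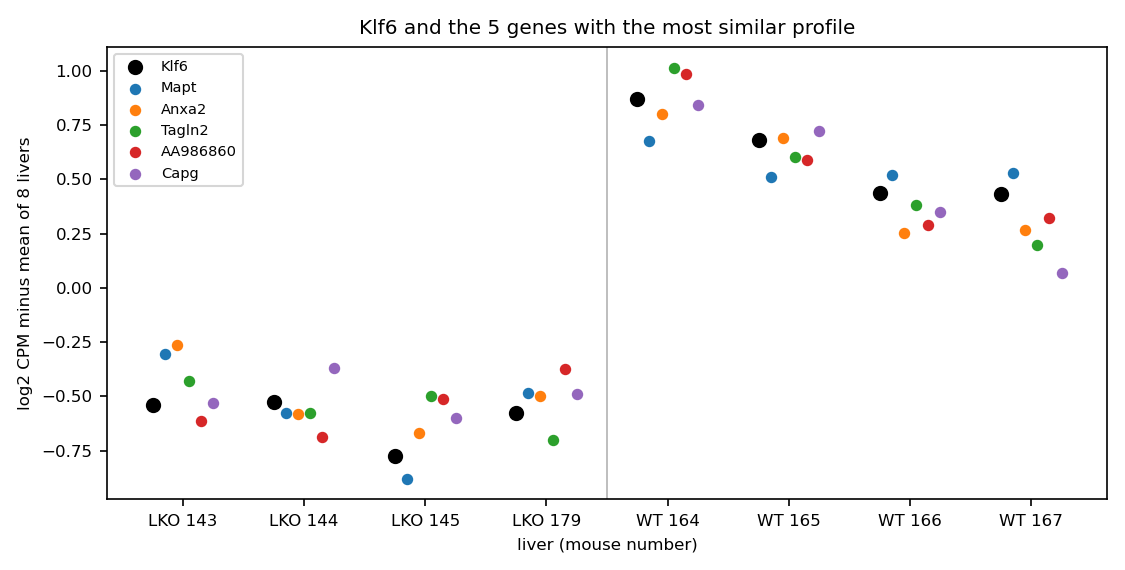
Log2 CPM minus the mean of the 8 livers for Klf6 (large black points) and the 5 genes most like it, by liver, E4bp4-LKO on the left and WT on the right. All 6 genes lie below 0 in the 4 E4bp4-LKO livers and above 0 in the 4 WT livers.

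Beside the members, 9 lists of related genes were followed, and list medians are log2 fold changes of E4bp4-LKO over WT. Each count of genes called by edgeR stands beside 4.37% of all genes tested called higher and 6.48% called lower. The median over all genes tested was 0.01, and 18.5% of them did not overlap between the groups in CPM. Under library totals the medians of the 9 lists lay between -0.48 and 0.06, and that over all genes at -0.15. For these lists too, the share of all genes with an unadjusted p under 0.05 is not given.

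The rest of the KLF and SP family, which binds the same GC-rich elements, held 16 genes, of which 8 were tested. By edgeR 2 were called higher and 0 lower, with a median log2 fold change of 0.18 (0.31 without WT mice 164 and 165), against 0.01 over all genes; DESeq2 also called 2 higher and 0 lower, and 0 were lower at an unadjusted p under 0.05. Sp5, a target of Wnt signalling, had 4.18, 6.09, 6.87 and 6.43 CPM in E4bp4-LKO livers, against 2.95, 1.07, 3.12 and 3.53 CPM in WT livers. Every knockout liver exceeded every WT liver (log2 fold change 1.15 ± 0.31 SE; edgeR adjusted p = 0.0402). The call was lost when E4bp4-LKO mouse 144, 145 or 179 or WT mouse 164 or 166 was left out (edgeR adjusted p = 0.0572 to 0.101). Sp4 had 7.40, 9.02, 9.04 and 6.38 CPM in E4bp4-LKO livers, against 4.19, 5.64, 3.86 and 4.90 CPM in WT livers. Its groups did not overlap either (log2 fold change 0.78 ± 0.16 SE; edgeR adjusted p = 0.0147, and 0.0537 without E4bp4-LKO mouse 144). Klf1, Klf7, Klf16, Sp1, Sp2 and Sp3 were tested and not called, and Klf5, Klf8, Klf14, Klf17, Sp6, Sp7, Sp8 and Sp9 were not tested.

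KLF6 acts on genes of TGF-beta signalling, matrix and cell cycle arrest. Of 11 such target genes, 1 was called lower and 0 higher by edgeR, with a median log2 fold change of -0.31 (-0.18 without WT mice 164 and 165), 0 higher and 6 lower at an unadjusted p under 0.05, and 0 higher and 4 lower by DESeq2. Cdkn1a, the gene of the cell cycle inhibitor p21, had 12.6, 7.67, 8.90 and 17.0 CPM in E4bp4-LKO livers, against 57.0, 43.1, 41.1 and 51.1 CPM in WT livers. The groups were far apart (log2 fold change -2.07 ± 0.23 SE; edgeR adjusted p = 0.00181). No other member of the list was called. Acvrl1, Tgfbr1, Tgfbr2 and Eng, the receptors of the TGF-beta family in the list, had log2 fold changes of -0.48, -0.18, 0.07 and 0.13. The rest of the list, Col1a1, Plau, Mmp14, Tgfb1, Atg7 and Becn1, stood at -1.46, -0.66, -0.51, -0.31, -0.10 and -0.02. Leaving out WT mouse 166 or 167 added calls: 2 genes were lower without mouse 166 and 3 without mouse 167. It stayed at 1 gene without WT mouse 164 or 165.

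Around KLF10 and KLF11, 9 genes of TGF-beta and SMAD signalling held 0 called higher and 2 called lower, with a median of -0.04 (0.10 without WT mice 164 and 165), against 0 higher and 3 lower at an unadjusted p under 0.05 and 0 higher and 2 lower by DESeq2. Tgfb3, a TGF-beta ligand, had 1.33, 1.68, 1.51 and 1.61 CPM in E4bp4-LKO livers, against 5.61, 2.53, 3.02 and 3.32 CPM in WT livers (log2 fold change -1.24 ± 0.25 SE; edgeR adjusted p = 0.0142). Tgfb2, another ligand, had 1.89, 2.29, 1.73 and 1.96 CPM in E4bp4-LKO livers, against 4.10, 2.90, 2.91 and 2.80 CPM in WT livers (log2 fold change -0.69 ± 0.18 SE; edgeR adjusted p = 0.0378). Neither ligand overlapped between the groups. The Tgfb2 call held in the fit without WT mouse 167 and was lost without any other mouse (edgeR adjusted p = 0.0550 to 0.0925). The transducers Smad2, Smad3 and Smad4 and the inhibitor Smad7 were not called. Tgfb1, Tgfbr1 and Tgfbr2 stand in this list and among the KLF6 targets, and Col1a1 is both a KLF6 target and a stellate cell marker.

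Of 14 genes of cofactors that KLFs recruit, 1 was called higher and 0 lower by edgeR, with a median of 0.04 (-0.12 with library totals, 0.17 without WT mice 164 and 165), and 2 were higher and 1 lower at an unadjusted p under 0.05, while DESeq2 called 1 higher and 0 lower. The acetyltransferase gene Kat2b had 104, 111, 107 and 118 CPM in E4bp4-LKO livers, against 84.4, 96.7, 87.7 and 86.9 CPM in WT livers (log2 fold change 0.31 ± 0.07 SE; edgeR adjusted p = 0.0248). Its groups did not overlap, and the call was lost in 9 of 17 alternatives, among them the fits without E4bp4-LKO mouse 144, 145 or 179 or WT mouse 166 (edgeR adjusted p = 0.0501 to 0.0685). Ctbp2, the gene lower at an unadjusted p under 0.05 and named after its values were seen, had a log2 fold change of -0.51.

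**Figure D5:**
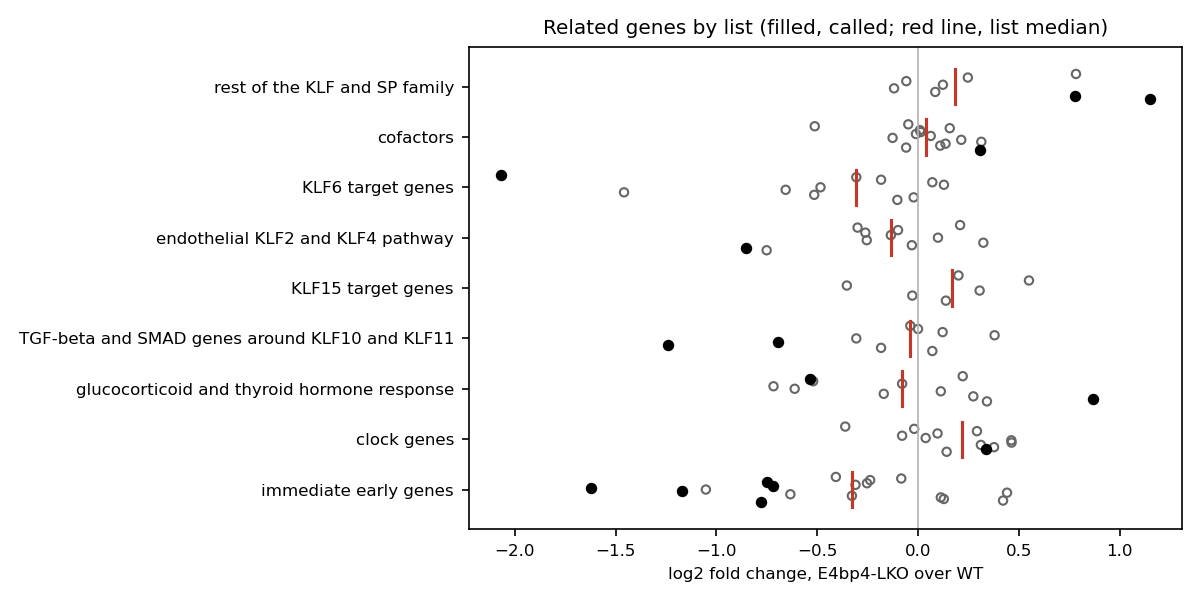
Log2 fold change of E4bp4-LKO over WT for the tested genes of 9 related lists, each point a gene, filled where called by edgeR, with a red line at the median of each list. Cdkn1a at -2.07 is the lowest point and Sp5 at 1.15 the highest.

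The endothelial pathway of KLF2 and KLF4, the kinases MEK5 and ERK5, the MEF2 factors and the targets of the factors, held 11 genes, with 0 called higher and 1 lower by edgeR, a median of -0.14 (0.02 without WT mice 164 and 165), 1 higher and 2 lower at an unadjusted p under 0.05, and 1 higher and 1 lower by DESeq2. Vcam1, an adhesion molecule for leukocytes, had 48.8, 20.7, 35.4 and 35.0 CPM in E4bp4-LKO livers, against 74.0, 64.8, 60.8 and 53.1 CPM in WT livers. The groups did not overlap (log2 fold change -0.85 ± 0.22 SE; edgeR adjusted p = 0.0402). The call was lost without E4bp4-LKO mouse 145 or 179 or WT mouse 164, 165 or 166 (edgeR adjusted p = 0.0688 to 0.120), and without mouse 145 there was 1 gene called higher. Nos3, Thbd and S1pr1, which KLF2 induces in endothelium, had log2 fold changes of 0.10, -0.25 and 0.32, not called, S1pr1 being the gene higher at an unadjusted p under 0.05.

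Of 6 KLF15 target genes of amino acid and glucose metabolism, 0 were called by edgeR (1 higher without WT mouse 167), with a median of 0.17 (-0.02 without WT mice 164 and 165), while 2 were higher (Prodh and Bcat2) and 1 lower (Tat) at an unadjusted p under 0.05 and DESeq2 called 1 higher and 1 lower. Tat, which breaks down tyrosine, had the smallest p: 1064, 951, 968 and 914 CPM in E4bp4-LKO livers, against 1104, 1076, 1281 and 1517 CPM in WT livers (log2 fold change -0.35 ± 0.12 SE; edgeR adjusted p = 0.0918, and 0.00815 to 0.196 over 17 alternatives, 6 of which called it). Pck1, the gluconeogenic enzyme gene, had a log2 fold change of -0.03.

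Among 11 genes of the glucocorticoid and thyroid hormone response, the hormones that induce Klf9, 1 was called higher and 1 lower by edgeR, with a median of -0.08 (-0.04 without WT mice 164 and 165). At an unadjusted p under 0.05, 3 were higher (Nr3c1, Thrb and Thrsp) and 2 lower (Tsc22d3 and Sgk1), and DESeq2 called 2 higher and 2 lower. Thrsp, a lipogenic gene induced by thyroid hormone, had 1009.8, 717, 701 and 805 CPM in E4bp4-LKO livers, against 499.6, 316, 472 and 487 CPM in WT livers (log2 fold change 0.87 ± 0.16 SE; edgeR adjusted p = 0.0111). Tsc22d3, a glucocorticoid target, had 58.8, 45.8, 52.6 and 73.4 CPM in E4bp4-LKO livers, against 74.1, 79.8, 84.6 and 96.2 CPM in WT livers (log2 fold change -0.54 ± 0.14 SE; edgeR adjusted p = 0.0326). Neither gene overlapped between the groups, though the Tsc22d3 call held only without E4bp4-LKO mouse 179 or WT mouse 164 among the fits without a mouse (edgeR adjusted p = 0.0529 to 0.0857 in the other 6).

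Clock genes were followed because Klf9, Klf10 and Klf15 cycle over the day in liver. Of 13 listed, 12 were tested, and 1 was called higher and 0 lower by edgeR. At an unadjusted p under 0.05, 4 were higher and 0 lower, and DESeq2 called 3 higher and 0 lower. With library totals, with limma on log2(FPKM + 1) or without WT mice 164 and 165, 0 were called. The median was 0.22 (0.06 with library totals, 0.17 without WT mice 164 and 165). Tef, a D-box activator, had 206, 232, 247 and 242 CPM in E4bp4-LKO livers, against 157, 185, 192 and 199.8 CPM in WT livers (log2 fold change 0.34 ± 0.10 SE; edgeR adjusted p = 0.0472). Its groups did not overlap, and the call was lost in 12 of 17 alternatives, among them the fits without any mouse but E4bp4-LKO mouse 143 or WT mouse 167 (edgeR adjusted p = 0.0696 to 0.116). The sources used here do not give the time of day at which livers were taken.

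Immediate early genes, which like Klf6, Klf4, Klf2 and Klf10 are induced within a short time of a stimulus, numbered 18, of which 17 were tested. By edgeR 5 were called lower and 0 higher, beside 6.48% and 4.37% of all genes tested. The list median was -0.33 (-0.47 without WT mice 164 and 165), against 0.01 over all genes. At an unadjusted p under 0.05, 0 were higher and 8 lower, and DESeq2 called 0 higher and 5 lower. Atf3, a stress-induced factor, had 4.48, 3.03, 4.74 and 3.48 CPM in E4bp4-LKO livers, against 10.9, 8.94, 8.63 and 6.99 CPM in WT livers (log2 fold change -1.17 ± 0.18 SE; edgeR adjusted p = 0.00443). Jun, a subunit of AP-1, had 50.9, 35.9, 40.4 and 40.2 CPM in E4bp4-LKO livers, against 66.8, 57.2, 80.3 and 77.5 CPM in WT livers (log2 fold change -0.75 ± 0.13 SE; edgeR adjusted p = 0.00742). In neither gene did the groups overlap.

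Egr2, a zinc-finger factor, had 1.22, 1.28, 1.36 and 0.357 CPM in E4bp4-LKO livers, against 3.87, 2.93, 3.30 and 3.11 CPM in WT livers (log2 fold change -1.62 ± 0.30 SE; edgeR adjusted p = 0.0103). Btg2, an antiproliferative gene, had 21.2, 21.9, 25.1 and 14.8 CPM in E4bp4-LKO livers, against 31.8, 34.5, 36.3 and 40.3 CPM in WT livers (log2 fold change -0.78 ± 0.14 SE; edgeR adjusted p = 0.00921). Atf3, Jun, Btg2 and Egr2 were apart between the groups and stayed called when any mouse was left out. Without both WT mice 164 and 165, 3 genes of the list were called lower, and Egr2 was not (edgeR adjusted p = 0.0509). The fifth called gene, Egr1, named after its values were seen, had a log2 fold change of -0.72 (edgeR adjusted p = 0.0396, and 0.0509 to 0.0973 in the 7 fits that left out a mouse other than E4bp4-LKO mouse 179). Fos, Fosb and Nr4a1 were not called, with log2 fold changes of -0.41, -0.08 and 0.13.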

How the data were processed

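Whole-liver RNA-seq libraries of 4 E4bp4-LKO and 4 WT mice were grouped by the labels' genotype. The labels' protocols name oligo-dT enrichment or ribosomal RNA depletion without assigning either to a library. Per the submitters' processing notes the aligner was HISAT2. The sources used here do not give its version, the counting tool, the strand, the genome build or the annotation. Per the file headers, the authors deposited an expected count (an estimated count) per gene without normalization. Of these values, 25.9% to 27.3% are fractional per library. The deposited FPKM was computed by the authors per transcript length and library size. The files list 16792 genes, 14117 of them in all 8, and a gene missing from a file was read as 0. No 2 libraries were copies (lowest chi-square per degree of freedom 7.24). A floor of 3 counts reflects counting error alone, because no molecular identifiers mark PCR copies.

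Counts were rounded, filtered with filterByExpr (at least 10 counts, total of at least 15), scaled by TMM and tested with edgeR 4.0.16 (R 4.3.3; robust quasi-likelihood F test, two-sided), with Benjamini-Hochberg adjustment over 13242 genes and a threshold of 0.05. The SE is the absolute log2 fold change divided by the square root of F. The code was tested on simulated counts. Alternatives were DESeq2 1.42.0, its size factors in edgeR, library totals, no filter, 5 CPM in 4 libraries, limma 3.58.1 with trend on log2(FPKM + 1) or log2(FPKM + 0.1) with a floor of 1 FPKM in 4 libraries, and on log2(FPKM + 1) for all genes, leaving out each mouse, and leaving out WT mice 164 and 165. The labels name no pairs of mice and littermate status is not given, so the groups were compared as unpaired. P-values of the group comparison set the difference against the spread between mice, estimated with information shared across genes.

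The members and the lists were chosen with earlier results of these data known. Named genes were the members, Nfil3, up to 4 called genes with the smallest p of each list (or the gene with the smallest p where none was called), and the 5 genes most like Klf6 with a mean FPKM of at least 1. Sequences are from RefSeq promoters, to which 9 of 10 members were matched by symbol. The hepatocyte marker Tf was not matched under that symbol and was not used here. A further marker list is not reported here.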

Additional observations from a re-analysis of the deposited data

Results flagged for a closer look

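Among the named genes, each group of 4 livers was searched for a liver whose distance to its nearest neighbour took up more of the range of the group than Dixon's 95% critical value allows. Of 62 genes and groups looked at, 4 met this, and chance alone flags about 1 in 20. None of the 10 Kruppel-like factors was among them. WT mouse 164 stood above the other 3 WT livers for Tgfb2, at 4.10 CPM against 2.80 to 2.91 CPM. The same mouse was the highest for Mapt, at 17.7 CPM against 15.8 to 16.02 CPM. WT mouse 165 stood below the other WT livers for Thrsp, at 316 CPM against 472 to 499.6 CPM. E4bp4-LKO mouse 179 stood below the other knockout livers for Egr2, at 0.357 CPM against 1.22 to 1.36 CPM.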

How the results depend on the processing

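Nfil3 was called lower in all 17 alternatives, with estimates of -1.57 to -1.17. Library totals and limma on log2(FPKM + 0.1) or log2(FPKM + 1) called 2 members lower, Klf6 and Klf11. These settings moved the median of all genes by -0.16, -0.14 and -0.12, against which Klf6 stood at -1.24, -1.22 and -1.10. The estimates of Klf3, Klf9, Klf13 and Klf15 changed sign under some settings, and that of Klf2 in 1 of 17 (0.01). Those of Klf4, Klf10, Klf11 and Klf12 kept their sign. With any mouse left out, 1 member was called lower; since Klf6 was chosen on this contrast, its calls here are no support for it.

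Over all genes, DESeq2 called 2238 (971 higher) and the fit without WT mice 164 and 165 called 387 (182 higher, 205 lower). Genes called higher numbered 291 with library totals, 261 with limma on log2(FPKM + 0.1), 261 with log2(FPKM + 1) and 210 without a filter on FPKM, and genes called lower numbered 1660, 1449 and 1423 in the first 3 of these. Lower genes made up 59.7% of the calls in the main analysis and 85.1% with library totals. Leaving out a mouse gave 506 to 1540 genes called, 235 to 608 higher and 271 to 933 lower.

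In the 9 related lists, 94 different genes were tested, with 5 higher and 10 lower. Higher genes numbered 10 by DESeq2, 3 with library totals, 2 with limma on log2(FPKM + 0.1), 2 with log2(FPKM + 1), 1 without its filter and 2 without WT mice 164 and 165, and 1 to 7 when a mouse was left out. Lower genes numbered 17 with library totals, 6 without WT mice 164 and 165, and 6 to 10 when a mouse was left out. The causes were not tested. The order of levels kept 8 to 10 members at their rank and 6 to 7 pairs separated when a mouse was left out.

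No paired analysis was possible because the labels name no pairs of mice, and whether any were littermates is not known. With 4 livers a group, the SE of a member was 0.07 to 0.24 on the log2 scale, so small differences could not be seen. Klf4 had the fewest counts.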
